A study of Drosophila melanogaster with 2 samples.

Results

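The Notch pathway core genes were described here across the Snail-eGFP peak lists of whole Drosophila melanogaster embryos. The 8 genes were taken by name: the ligand genes Delta and Ser, the ligand ubiquitin ligase gene neur, the receptor gene N, the protease gene kuz, the DNA-binding effector gene Su(H), the coactivator gene mam and the corepressor adaptor gene H. They are 8 of 13945 protein-coding genes on the 6 main chromosome arms. A peak was counted to a gene if its summit lay within the annotated gene span extended by 5000 bp at each end, and 23 of the 4222 peaks in the pooled thresholded list did so. A thresholded list holds the peaks that passed the authors' limit of 0.01 on the irreproducible discovery rate (IDR). That rate is low where a region ranks alike in separate sets of reads. A ranked list holds all candidate regions, weak ones included.

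The embryos came from 1 group, a strain carrying a GFP-tagged sna insertion and collected whole over 0 to 24 h of development, with 2 biological replicates. Chromatin bound to the fusion protein was recovered with an antibody against GFP and sequenced. The labels do not give the promoter of the insertion or the share of cells that held the protein, and a collection of this width mixes all embryonic stages and cell types. The labels name a control experiment that was not analysed here, so tagged-protein binding could not be told apart from background at open promoters. With 1 group there was no contrast between conditions and no test. Values are set beside the same values for all coding genes or all peaks.

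Notch is a receptor that touches ligands on neighbouring cells. In flies the ligands are Delta and Serrate, which the ubiquitin ligase Neuralized sends into endocytosis in the signalling cell. The ADAM protease Kuzbanian then sheds the outer part of Notch, and gamma-secretase frees its intracellular part. This fragment enters the nucleus and joins the DNA-binding protein Suppressor of Hairless and the coactivator Mastermind to turn targets on, while Hairless keeps the same DNA-binding protein in a repressing complex with Groucho and CtBP. In the fly embryo the pathway is known for singling out neuroblasts and for specifying the midline cells beside the Snail-expressing mesoderm.

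Sequence around the summits is shown for the strongest peak nearest to each gene's own start site, as the sequence under the peaks that most directly concern the members. The strongest peaks of neur and N, which other genes' start sites lay nearer to, were added. For H, which had no thresholded peak, the strongest candidate is given. The mam window is not shown. Each run is 100 bases either side of the summit and the summit base, on the plus strand of dm6, read from the NCBI copy of that assembly. Capitals mark matches on either strand. The motif CAGGTG is bound by Snail, and its E-box relatives marked were CAAGTG and the palindrome CACGTG. The general E-box CANNTG was also searched but is not marked. The motif CAGGTA is bound by Zelda. The factor DREF binds TATCGATA, whose core CGATA is also read by BEAF-32. GAGA factor binds GAGAG, and Su(H) binds GTGGGAA as well as GTGAGAA. The core promoter element called Motif 1 was searched as GGTCACAC. CGATA lies within TATCGATA, and GAGAG matches can overlap each other.
Delta, intronic peak, chr3R:19321977-19322177: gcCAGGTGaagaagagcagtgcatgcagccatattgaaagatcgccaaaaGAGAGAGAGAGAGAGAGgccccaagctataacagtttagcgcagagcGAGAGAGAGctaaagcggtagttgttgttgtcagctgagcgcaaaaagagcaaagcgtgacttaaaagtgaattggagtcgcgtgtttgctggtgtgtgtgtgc
Ser, start site, chr3R:27194246-27194446: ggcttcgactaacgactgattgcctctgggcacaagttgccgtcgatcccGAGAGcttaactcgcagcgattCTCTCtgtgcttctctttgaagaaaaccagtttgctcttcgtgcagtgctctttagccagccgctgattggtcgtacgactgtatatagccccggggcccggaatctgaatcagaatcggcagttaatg
neur, internal start, chr3R:9033570-9033770: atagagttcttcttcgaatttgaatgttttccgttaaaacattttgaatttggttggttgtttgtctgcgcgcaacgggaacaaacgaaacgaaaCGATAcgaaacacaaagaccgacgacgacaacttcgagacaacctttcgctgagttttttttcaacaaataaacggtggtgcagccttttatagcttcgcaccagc
neur, strongest peak, chr3R:9038774-9038974: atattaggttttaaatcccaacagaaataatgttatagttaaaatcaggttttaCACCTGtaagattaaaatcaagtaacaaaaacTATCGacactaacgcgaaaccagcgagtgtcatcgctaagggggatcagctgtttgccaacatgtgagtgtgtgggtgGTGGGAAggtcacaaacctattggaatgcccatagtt
N, start site, chrX:3134601-3134801: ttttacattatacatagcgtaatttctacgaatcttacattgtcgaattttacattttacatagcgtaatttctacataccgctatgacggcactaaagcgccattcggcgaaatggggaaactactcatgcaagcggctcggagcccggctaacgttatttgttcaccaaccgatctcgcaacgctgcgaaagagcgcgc
N, intronic peak, chrX:3162765-3162965: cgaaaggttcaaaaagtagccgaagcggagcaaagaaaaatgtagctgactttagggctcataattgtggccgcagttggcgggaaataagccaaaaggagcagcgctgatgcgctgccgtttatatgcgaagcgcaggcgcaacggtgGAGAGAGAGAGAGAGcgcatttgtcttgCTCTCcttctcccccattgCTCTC
kuz, start site, chr2L:13549929-13550129: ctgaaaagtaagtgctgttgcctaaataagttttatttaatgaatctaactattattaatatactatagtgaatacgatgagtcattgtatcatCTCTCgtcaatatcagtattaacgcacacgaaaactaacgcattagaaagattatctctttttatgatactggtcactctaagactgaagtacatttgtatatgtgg
Su(H), start site, chr2L:15039417-15039617: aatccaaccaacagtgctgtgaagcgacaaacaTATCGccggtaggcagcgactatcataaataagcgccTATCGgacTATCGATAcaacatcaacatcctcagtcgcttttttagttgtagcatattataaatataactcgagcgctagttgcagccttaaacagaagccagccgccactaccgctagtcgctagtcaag
H, candidate, chr3R:20622882-20623082: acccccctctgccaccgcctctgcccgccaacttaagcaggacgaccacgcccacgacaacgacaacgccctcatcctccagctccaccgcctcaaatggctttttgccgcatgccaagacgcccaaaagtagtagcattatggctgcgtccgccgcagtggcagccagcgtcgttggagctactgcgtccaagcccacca

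The Delta window, in an intron, held 1 CAGGTG at 95 bp from the summit and 10 overlapping GAGAG matches. That of Su(H) held TATCGATA once and 4 CGATA matches, the nearest 17 bp from its summit. The window of the strongest neur peak held CAGGTG at 43 bp, CGATA at 12 bp and the only Su(H)-type GTGGGAA among the 23 windows, but it belongs to the shared 5′ region of neur and hyx. The intronic N window held 8 GAGAG matches, and neither the N start-site window nor the H candidate window held any of the marked motifs. These are letters in the sequence and were not tested as binding sites.

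Peaks were found at 7 of the 8 genes, of which H was the exception. Of all coding genes, 52.7% had a summit by the same rule. The share differed by gene length: it was 51.0% for spans under 10 kb, which include Su(H) and H, 63.8% for 10 to 50 kb, which include Delta, Ser, neur and N, and 60.3% for spans over 50 kb, which include kuz and mam. The members' count was thus above the share of every length class, but 8 genes are few. The same 7 genes had at least 1 summit that lay nearer to their own start site than to any other, which 22.6% of coding genes had. This share was not split by gene length. For neur and N the only such summit was close to the limit, with a −log10 IDR of 2.02 and 2.09. Neither was thresholded in a replicate's own list. A summit counted by span can belong to a neighbour, and for 10 of the 23 the nearest start site was another gene's.

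**Figure D1:**
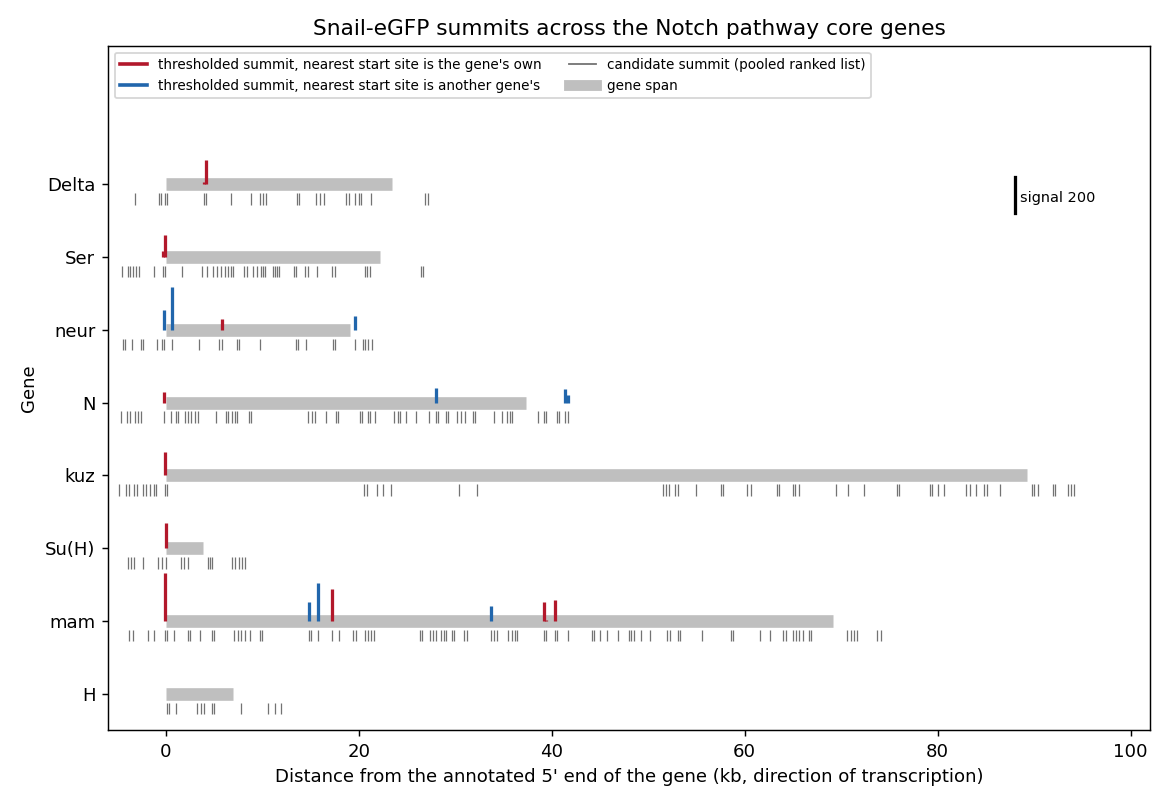
Positions of summits along the 8 genes, in kb from the annotated 5′ end in the direction of transcription, with grey bars for gene spans and small ticks for pooled candidate summits. The height of a coloured line is the signal of a thresholded peak, to the scale bar of 200, in red where the nearest start site is the gene's own and in blue where it is another gene's. Summits of Ser, neur, N, kuz, Su(H) and mam stand at or near the 5′ end, those of neur in blue. That of Delta stands 4.14 kb inside, neur, N and mam have further lines, and H has ticks only.

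The signal of a peak is the authors' own enrichment value, on an unstated scale, so it is compared within a list. The 23 peaks had a median signal of 105, against 109 for the whole list. Above the list median were 10 of them, and none (0) lay among the strongest 10% of peaks. Overlapping peaks left 18 separate sites after merging. In 5 sites a second, weaker peak lay on the flank of a stronger one, down to a signal of 2.04 at mam. Such a flank peak had nearly the same IDR as its partner: −log10 IDR was 3.44 for both Delta peaks, although their signals were 134 and 10.2. Only the stronger peak of each site is therefore read as a site below. For 21 of the 23 peaks the width was 516 bp, as for 79.8% of all thresholded peaks, with the summit 258 bp from the start, so these summits are middles of fixed-width regions.

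Of the ligand genes, Delta had 1 site, inside its first intron. The peak covered chr3R:19321819-19322334 with a signal of 134 (rank 1519 of 4222) and its summit lay 4140 bp downstream of the only annotated start site, in intron 1 of 5 of all 3 transcripts. In replicate 1 the overlapping region had a signal of 78.6 and was thresholded. In replicate 2 the signal was 53.5 and the region was a candidate only. The Delta start site itself carried a candidate 154 bp downstream with a signal of 55.6 and a −log10 IDR of 1.63, under the limit of 2. Delta was thus the only member with a thresholded peak but none within 500 bp of an annotated start site of its own.

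Ser, the second ligand gene, had its site at the promoter. The stronger peak, at chr3R:27194088-27194603, had a signal of 121 (rank 1763) and its summit 79 bp upstream of the 5′ start site. Replicate 1 gave it 64.1, thresholded, and replicate 2 gave 52.2, a candidate only. The 22.2 kb span of Ser held no further thresholded peak. Its next strongest candidate not thresholded, 49.6, lay beyond the 3′ end and nearest to spn-D.

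At neur, which acts on both ligands, the strongest peaks stood in a 5′ region shared with hyx, a gene on the opposite strand whose span overlaps the 5′ end of neur. The strongest, at chr3R:9038763-9038965, had a signal of 233 (rank 634) and lay 597 bp downstream of the neur 5′ start site, but 114 bp from a start site of hyx. The next, at chr3R:9039436-9039951 (signal 112), lay 223 bp upstream of neur and 72 bp upstream of the second hyx start site. These 2 peaks cannot be assigned to one gene by position. A weaker peak at chr3R:9033412-9033927 (signal 61.1, −log10 IDR 2.02) lay 61 bp downstream of the internal start site of neur, which is 5.74 kb from the 5′ one. It was close to the limit and was thresholded in neither replicate, with 52.9 in replicate 1 and 17.9 in replicate 2. The remaining peak, past the 3′ end (chr3R:9019616-9020131, signal 78.0), was nearest to the start site of tgo.

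The receptor gene N carried the weakest set among the 7 genes with a peak. Its strongest peak, at chrX:3162607-3163122, had a signal of 79.0 (rank 3184) and lay in intron 5 of 8, 27995 bp from the start site and 10275 bp from the nearest other start site, that of CG18508. Replicate 2 gave this region 54.4, thresholded, and replicate 1 gave 26.3, a candidate only. At the N start site the peak at chrX:3134443-3134958 had a signal of 58.6, 169 bp upstream, with a −log10 IDR of 2.09. It was thresholded in neither replicate, with 45.6 in replicate 1 and 26.8 in replicate 2. The third site, at chrX:3176015-3176530 (signal 72.3), lay 4052 bp past the 3′ end of N and 167 bp upstream of a start site of dnc. None (0) of the N peaks was in the list that the authors made from the replicate pair.

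kuz, whose product makes the first ligand-induced cut in Notch, had 1 site in its 89.3 kb span, at the promoter. The peak, at chr2L:13549771-13550286, had a signal of 130 (rank 1605) and lay 110 bp upstream of the start site. It was thresholded in both replicates, with signals of 62.6 in replicate 1 and 82.0 in replicate 2. The kuz window held 57 pooled candidates in all, and 2 long stretches held none: 20.4 kb from 0.101 to 20.5 kb downstream of the start site, and 19.3 kb from 32.3 to 51.5 kb. Replicate 1 alone left 21.2 kb without a candidate from 0.622 kb, and replicate 2 alone 16.8 kb, from 59 bp upstream of the start site to 16.8 kb downstream. In the reference, 41.6% of the bases of the first stretch and 17.4% of those of the second were masked as repeats, against 23.8% of the whole gene. What part repeats have in these gaps was not tested.

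Among the nuclear factors, Su(H) had 1 site at its start site and mam had 7 along its length. The Su(H) peak, at chr2L:15039259-15039774, had a signal of 138 (rank 1460), 29 bp downstream of the start site and in the first exon of both transcripts. It was thresholded in both replicates, with 103 in replicate 1 and 51.4 in replicate 2. A pooled candidate of 47.3 in the Su(H) window lay 175 bp from the start site of the neighbour CIAPIN1, and the region over it in replicate 1 had 42.8. Each replicate's own thresholded list held 2 summits in the Su(H) window, against 1 in the pooled list.

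mam had 9 thresholded summits in 7 sites, the most among the members. Of coding genes over 50 kb, 2.28% had 9 or more summits, and 2 coding genes of any length had more than mam. As many as mam were found at 5 coding genes, mam included. Flank peaks are part of these counts. The strongest peak covered chr2R:13990953-13991222 at the 5′ start site, 130 bp upstream, with a signal of 266 (rank 477). The next 2 lay in intron 2 of 6 of the 1 transcript of 4 that covers them: chr2R:14006765-14007280 with 212, and chr2R:14008211-14008726 with 175, which stood 730 bp upstream of the internal mam start site at 17996 bp. A peak at chr2R:14031244-14031759 (113) lay 161 bp upstream of the other internal start site, at 40460 bp, and one at chr2R:14030134-14030649 (105) lay 1271 bp upstream of the same start. Of the remaining sites, chr2R:14005741-14006256 (106) lay 7 bp from the annotated start of the microRNA gene mir-4978, and chr2R:14024644-14025159 (84.8) lay 3718 bp from the nearest start, that of CG18371. The 3 start sites of mam thus each had a thresholded summit within 730 bp.

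The replicates both listed the strongest mam sites. The 5′ site had 143 in replicate 1 and 111 in replicate 2, the site of 212 had 131 and 95.6, and the site of 175 had 95.2 and 72.8. All 3 were thresholded in both, as was the site of 105, with 52.7 in replicate 1 and 50.2 in replicate 2. The remaining 3 sites were candidates only in each replicate, with 45.3 to 64.3 in replicate 1 and 41.3 to 44.4 in replicate 2. One further intronic region of mam, 9745 bp from the 5′ start, overlapped a candidate of replicate 2 with a signal of 45.4. In the pooled list it was a candidate with a signal of 82.8 and a −log10 IDR of 0.164, and no candidate of replicate 1 overlapped it.

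H, whose product holds Su(H) in its repressing complex, had no thresholded peak in any of the 4 thresholded lists within 5000 bp. It had 12 pooled candidates. The strongest, at chr3R:20622724-20623239, had a signal of 60.4 and a −log10 IDR of 0.172, and lay 1044 bp downstream of the start site in an exon. It had 41.2 in replicate 1 and 25.5 in replicate 2. A candidate 161 bp downstream of the H start site had a signal of 49.1, with 45.9 in replicate 1 and 4.62 in replicate 2. By signal the strongest H candidate was above the N start-site peak of 58.6, which passed the IDR limit. The nearest thresholded peak was just outside the window, 5981 bp from the H span, with a signal of 257 and the start site of Pi3K92E nearest. The farthest summits inside a window were those at dnc, 4305 bp past the N 3′ end with a signal of 40.7.

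**Figure D2:**
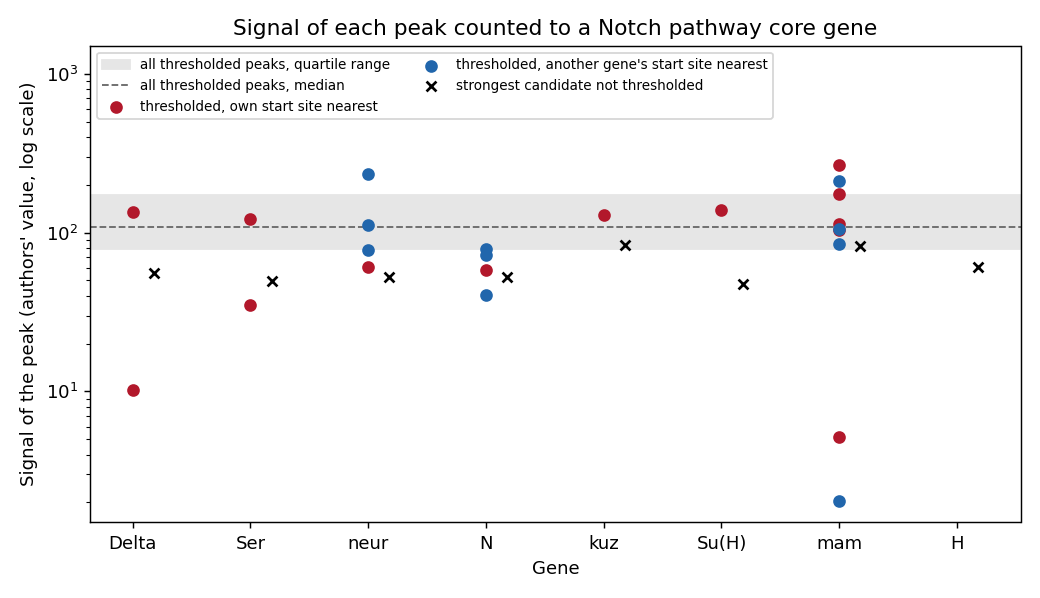
Signal of each of the 23 thresholded peaks by gene, on a log scale, in red where the gene's own start site was nearest and in blue where another gene's was, with crosses for the strongest candidate of each gene that was not thresholded. The grey band is the quartile range of all 4222 thresholded peaks and the dashed line their median of 109; the 3 lowest points, at 10.2, 5.18 and 2.04, are flank peaks of Delta and mam, and H has a cross only.

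The replicates were compared at the 18 sites, using the strongest overlapping region in each replicate's own ranked list. All 18 sites overlapped a candidate in both replicates. A candidate among the strongest 10% of its list was present at 16 sites in replicate 1 and at 17 in replicate 2, and at 15 in both. The exceptions were the intronic N site and the dnc site in replicate 1, and the internal neur start site in replicate 2. These candidate counts were not taken over all sites of the list, so they do not set the members apart. The sites had already passed the limit in the pooled reads, so a high place in each replicate's list was partly built in. Thresholded peaks overlapped 7 sites in both replicates, 2 in replicate 1 only (Delta and Ser), 2 in replicate 2 only (at neur and in the N intron) and 7 in neither. Counted by peak, 8 of 23 overlapped in both, against 44.4% of the whole list, and 9 of 23 in neither, against 26.0%. The files give no read counts, so the depth behind these values is unknown, and 2 replicates limit the precision.

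**Figure D3:**
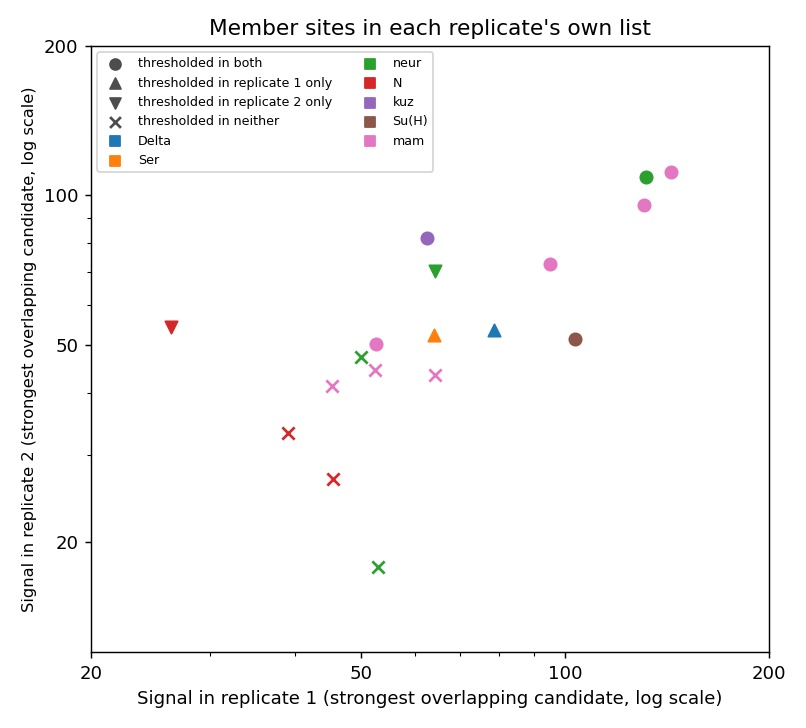
Signal of each of the 18 sites in replicate 1 (x axis) and replicate 2 (y axis), both on log scales, coloured by gene and with the symbol showing in which replicates the site was thresholded. The sites of neur at 131.5 and 108.9 and of mam at 143 and 111 stand at the upper right, and the intronic N site at 26.3 and 54.4 stands apart on the left.

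Candidate density did not follow the thresholded peaks. Per 10 kb of extended span, the pooled list held 13.1 candidates at Ser, 13.0 at Su(H), 12.9 at N, 11.0 at mam, 8.58 at neur, 7.47 at Delta, 7.07 at H and 5.74 at kuz. The median over all coding genes was 10.1, with quartiles of 7.47 and 12.4. The densest genes, Ser, Su(H) and N, were above the upper quartile, and Delta, H and kuz were below the lower one, Delta only just. mam, with the most thresholded summits, was near the median. The order was not the same in each replicate's own list. In replicate 1 alone Ser had 4.66 candidates per 10 kb and N had 5.49, against a median of 5.001 over coding genes, while neur had 6.87. In replicate 2 alone Ser had 12.7 and N had 12.9, against a median of 9.63, and neur had 6.87. Su(H) was above the median in both replicates, with 8.67 in replicate 1 and 13.7 in replicate 2, and kuz was below it in both, with 3.73 and 5.54. In replicate 1 alone H had 6.48 candidates per 10 kb against a median of 5.001, and in replicate 2 alone 10.6 against 9.63, so its low place in the pooled list was not seen in either replicate.

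**Figure D4:**
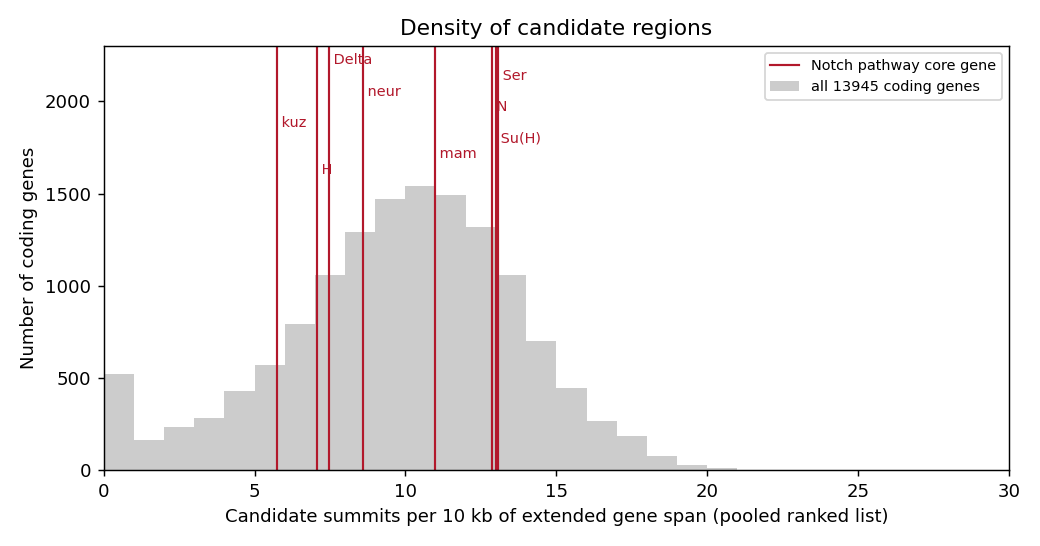
Number of coding genes by candidate summits per 10 kb of extended span in the pooled ranked list, with a red line for each of the 8 genes. The lines run from 5.74 at kuz to 13.1 at Ser, around the median of 10.1 for all coding genes.

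The members' peaks lay away from start sites more often by count than the list as a whole. A start site of any gene was within 500 bp for 15 of the 23 summits, against 83.9% of all thresholded summits. The other 8 summits form 6 sites: the Delta and N introns and 4 sites in mam. The mam site with a signal of 106 was counted as near a start site only through mir-4978, 7 bp away. Its nearest mam start site was 3200 bp away. With the stronger peak of each site only, the 6 sites away from start sites had a median signal of 120 and the 12 near one had 112. Over all merged sites of the list these medians were 91.1 away and 129 near. With the flank peaks counted too, the order at the members was the other way, with a median of 94.8 for the 8 summits away and 106 for the 15 near.

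Within 100 bp of the summit, GAGAG and CGATA had counts at the members unlike their shares in the whole list, and no test was run. GAGAG was found at 13 of 23 member summits, against 29.2% of all 4221 thresholded summits on the main arms and 22.7% of windows 1000 bp to either side. CGATA was found at 7 of 23, against 55.1% of all and 21.9% of the flanks. In the whole list the shares differed by place: GAGAG was in 48.8% of summits away from start sites and 25.5% of those near one, and CGATA in 29.6% and 59.9%. Among the members, GAGAG was in 7 of 8 summits away from start sites (5 of 6 sites) and 6 of 15 near one, and CGATA in 1 of 8 and 6 of 15. Several of these windows overlap, and counted once per site GAGAG was at 10 of 18 and CGATA at 7 of 18. Over all 3591 merged sites of the list, the shares were 29.4% for GAGAG and 58.8% for CGATA. The sites with CGATA were at mam (3), neur (3) and Su(H).

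The Snail motif CAGGTG was within 100 bp of 2 of 23 summits, at Delta and at the hyx side of neur, against 6.44% of all summits and 9.63% of flanks. Any E-box (CANNTG, which includes the 3 named ones) was at 14 of 23, against 62.6% of all. The variant CAAGTG was at 2, against 12.2%, and the Zelda motif CAGGTA was at 1, against 4.596%. The DREF motif TATCGATA was at 1, against 17.7%, and Motif 1 was at 1, against 4.999%. Of the Su(H) motifs, GTGGGAA was at 1, against 2.37%, while GTGAGAA was at 0, against 2.58%. The palindrome CACGTG was at 0, against 3.70%. The share of G and C was higher at the members, with a median of 49.3% (range 30.3 to 58.7), against a median of 42.3% and an upper quartile of 49.3% over all summits. What part base composition has in the motif counts was not tested.

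Other genes of the pathway were taken by role, 35 genes in all. Of these 27 had a thresholded summit within 5000 bp, and 15 had one nearest to their own start site, set against 52.7% and 22.6% of coding genes. No test was run on this list. All 4 gamma-secretase genes, which make the last cut in Notch, had a summit, but only that of Psn was nearest to its own start (signal 131, 13 bp upstream). The strongest summits of aph-1 (223), pen-2 (143) and Nct (122) were nearest to Taf10, Ote and CG7006. Tace, an ADAM protease gene related to kuz, had 339 at a peak nearest to Nlp.

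Genes for ligand endocytosis had summits in 4 of 4 cases, 3 of them their own. These were aux (373, 74 bp upstream), a clathrin uncoating factor, lqf (222, 309 bp upstream), the fly epsin, and mib1 (206, 25 bp downstream), a second ligand ubiquitin ligase. The strongest summit of Rala (183) was nearest to lncRNA:CR45102. Bearded-family genes, whose small proteins inhibit Neuralized, had a summit in 2 of 4 cases: Brd and Ocho shared 1 peak of 126 that was nearest to lncRNA:marge, and Tom and BobA had none.

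For receptor glycosylation and maturation, 3 of 5 genes had a summit of their own. The Furin gene Fur1 had 233 at 133 bp upstream, the O-glucosyltransferase gene rumi had 222 at 48 bp upstream and the glycosyltransferase gene fng had 79.7 at 163 bp upstream. O-fut1 and Fur2 had none. Of 9 genes for receptor trafficking 6 had a summit and 3 had their own: the kinase gene Nak (448, 141 bp upstream), and the ubiquitin ligase genes Su(dx) (212, 8 bp upstream) and Nedd4 (97.1, 477 bp upstream). numb, whose product blocks Notch in one daughter of an asymmetric division, had 129 at a peak nearest to lncRNA:CR43769. l(2)gd1 (167) and shrb (88.99) had theirs nearest to Reps and Prp38. dx, spdo and krz had none.

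In the nucleus, the corepressor gene gro, which acts with H, had a peak of 216 located 146 bp downstream of its start site, and that counted to CtBP (118) was nearest to CG8031. The Mediator genes kto and skd had own summits of 222 and 71.2, 71 and 263 bp upstream, while the acetyltransferase gene nej had none. Bre1, for a histone ubiquitin ligase, and insv, for a Su(H) partner in repression, had 183 at 42 bp and 78.5 at 21 bp downstream. Smr, for a corepressor, had 63.2 nearest to lncRNA:CR43963. The thresholded list of replicate 1 also held 1 summit in the gro window and 2 in that of fng. For both genes the lists of replicate 2 and of the replicate pair held 0. Replicate 2 also held 0 for Psn, pen-2, Nct, Brd, Ocho, l(2)gd1, shrb, CtBP and Bre1, and replicate 1 held 0 for insv and numb. The Smr window had 0 in each replicate's list and in the replicate-pair list.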

How the data were processed

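The data are peak lists in the narrowPeak layout from 1 group with 2 replicates, in dm6 coordinates per the labels. Deposited were ranked candidate lists and lists thresholded at an IDR of 0.01, for each replicate, for the pooled reads and for the replicate pair. Neither aligner nor peak caller is named in the labels or headers. Per the file headers and layout, the deposited signal column is the authors' enrichment value per peak, and the global IDR column is the authors' −log10 value. Depth is unknown, as no file gives read counts.

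Gene models came from Ensembl release 115. No region ended past an arm of the NCBI Release 6 sequence. Start sites of all annotated genes other than transposable elements were used. Peaks were matched by an overlap of 1 bp or more, and motifs were searched within 100 bp of the summit on both strands and 1000 bp to either side, with Python 3.11.15, numpy 2.4.6 and pandas 2.3.3. Of the 36 entries of the wider pathway list, 4 were older symbols matched through the reference gene table, and 2 were the same gene. All 200 summits and 11 motifs planted in simulated data were recovered.

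All 8 genes are named with each peak, and up to 4 genes per role of the wider list. The members and lists were chosen with earlier results of these data known. The length classes of genes, the count of genes with 9 or more summits, the counts of sites in the strongest 10% of candidates, the sequences of the strongest neur and N peaks, motifs and median signals split by distance from start sites or taken per site, the candidate gaps, and the wider genes without a peak or past 4 in a role were added after values were seen.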

Additional observations from a re-analysis of the deposited data

How the results depend on the processing

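The number of genes with a peak was 5 to 8 under the settings tried, against 7 as reported: 8 with spans extended by 10000 bp, where H gained the Pi3K92E peak, 6 with the replicate-pair list, which drops N, and 5 with no extension. The share of all coding genes with a summit was 64.2% with 10000 bp, 49.9% with the replicate-pair list and 13.8% with no extension, against 52.7%. These shares were not split by gene length, which sets the whole window when there is no extension. The number of summits was 10 among peaks above the median signal and 14 with no extension, against 23, and 10 to 11 with one replicate's list. Summits nearest to a member's own start site were 7 above the median signal and 6 to 7 with one replicate, against 13. With start sites of coding genes only there were 16 of them. Without replicate 1 Delta and Ser had no peak, and without replicate 2 N had none. The strongest signal of each gene was the same in the replicate-pair list, where N gave no value.

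Motif counts moved with the window. Within 50 bp they were, with the share over all summits, 1 for CAGGTG (3.41%), 0 for CAAGTG (6.37%), 8 for CANNTG (39.4%), 0 for CAGGTA (2.46%), 4 for CGATA (39.1%), 0 for GTGGGAA (1.11%) and 0 for GGTCACAC (2.63%). Within 250 bp they were 4 for CAGGTG (16.9%), 5 for CAAGTG (29.1%), 22 for CANNTG (91.5%), 21 for GAGAG (49.8%), 2 for GTGGGAA (6.21%), 2 for GTGAGAA (5.71%) and 3 for GGTCACAC (9.95%). Merging overlapping peaks, added after seeing the data, left 1 of 18 sites with CAAGTG, against 11.8% of all merged sites. Of the 35 wider genes, 12 had a summit with no extension, against 27. They were 15 without replicate 1, where 36.7% of coding genes had a summit, and 24 without replicate 2, where 45.0% had one. The settings hold different numbers of peaks or bases, and no cause of these differences was tested. No paired analysis was possible because there was 1 group. Fixed peak widths limit positions, and unknown depth limits what a missing peak can show.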
